A study of Homo sapiens with 6 samples.

Results

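The kinesin genes of C4-2B-ENZR cells were examined by RNA-seq in libraries labelled as control or as KIF15 knockdown. These cells are a human prostate cancer line resistant to the drug enzalutamide. Genes were taken by name, as every symbol made of KIF or KIFC, a number and at most 1 letter from A to C. Of 17356 rows in the files, 42 matched, and the 41 with a mean value of at least 1 in at least 1 group were kept. The gene left out, KIF2B, was listed at 2.3 in 1 control library and at 0 in the other 5, and the lowest gene kept, KIF16B, averaged 0.9 in the controls and 2 after KIF15 siRNA.

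All 6 libraries came from the same cell line. By title, 3 are controls (NC) and 3 have a KIF15 knockdown (siKIF15, read here as siRNA against KIF15). The titles do not say which siRNA the controls received, if any. The sources used here do not give the siRNA sequence, the time after transfection or whether the medium held enzalutamide. The labels do not say whether a group's 3 libraries came from separate cultures; the spread behind each p-value may therefore be technical. Each value is the signal deposited for a gene, with no known sequencing depth behind it. A log2 change is the siKIF15 mean less the NC mean of log2(value + 1), a scale that understates the change of low genes, and "rose" or "fell" is used where limma's adjusted p over all 16548 tested genes was under 0.05.

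Kinesins are motor proteins that walk along microtubules or take them apart at their ends, driven by ATP. One branch builds and works the mitotic spindle, another carries vesicles, organelles and RNA, and others serve cilia and signalling. KIF15, of the kinesin-12 family, and KIF11, of the kinesin-5 family, both act in the bipolar spindle: KIF11 pushes the spindle poles apart, and KIF15 is known as the motor that can keep a spindle bipolar when KIF11 is inhibited.

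Promoter sequence was printed for the target, its partner motor and KIF14, the mitotic kinesin that fell, because all 3 carry the same cell cycle element near the start. RefSeq promoter windows on GRCh38.p14, reaching from 250 bases before to 50 bases after each gene start, were found for 33 of the 41 genes. They were searched on both strands for TTTGAA, the core of the cell cycle genes homology region through which many mitotic genes are kept silent outside division. The 120 bases shown run 5′ to 3′ along the gene's strand from 100 bases before the start, and capitals mark the match, which lies on the opposite strand in each of them.
KIF15, chr3:44761694-44761813, plus strand: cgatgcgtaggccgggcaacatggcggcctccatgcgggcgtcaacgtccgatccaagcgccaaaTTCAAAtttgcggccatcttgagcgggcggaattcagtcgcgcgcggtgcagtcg
KIF11, chr10:92593030-92593149, plus strand: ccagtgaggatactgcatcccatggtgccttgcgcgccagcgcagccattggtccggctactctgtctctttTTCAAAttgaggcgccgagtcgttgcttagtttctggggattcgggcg
KIF14, chr1:200620732-200620851, minus strand: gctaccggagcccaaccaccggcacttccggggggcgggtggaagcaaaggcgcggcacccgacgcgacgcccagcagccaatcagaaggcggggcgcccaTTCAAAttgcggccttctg

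The match began 35 bases before the start of KIF15, 28 before that of KIF11 and 1 base after the first base of KIF14. It was present in 10 of 15 mitotic kinesin promoters, in 1 of 12 of cargo transport kinesins (KIF5B) and in 0 of 6 of the remaining kinesins. Counted by gene in the same way, 18.2% of 27305 symbols had a match. Counted by window, 15.2% of 35116 windows of the same length over all genes did. The CCAAT box, which often stands beside that element, was searched in the same way (letters CCAAT). It was found in 12 of the 15 mitotic promoters, against 39.7% of all symbols and 34.6% of all windows. KIF15 had no such match, while KIF11 and KIF14 had a match that began 53 and 22 bases before the start. In these kinesins no match of one motif overlapped a match of the other. These matches describe letters in a window and say nothing of binding.

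KIF15 transcript was not lower by the test in the libraries labelled KIF15 knockdown. It stood at 366.4, 403.6 and 319 in the controls, against 294.8, 333.1 and 363 after KIF15 siRNA. The groups overlapped: the highest siKIF15 library lay above the lowest NC library. The log2 change was -0.13 ± 0.14 (SE, adjusted p = 0.57), with a 95% interval that runs from 0.74 to 1.12 times the NC level. Since a lower KIF15 transcript was not detected, siKIF15 stands in what follows for libraries labelled as KIF15 knockdown, and directions are theirs. In GENCODE 29, KIF15 overlaps TMEM42 on the same strand, and how reads from shared sequence were counted is not stated.

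KIF11 gave 1145, 1247.6 and 1136 in the controls, against 875.5, 913.9 and 1170.6 after KIF15 siRNA. Libraries siKIF15 1 and 2 were below every NC library, whereas siKIF15 3 lay inside the NC range. The change did not pass (log2 change -0.26 ± 0.11, 95% interval -0.5 to -0.03, adjusted p = 0.12). It depended on the libraries kept: -0.39 without siKIF15 3 (adjusted p = 0.0027) and -0.184 without siKIF15 1 (adjusted p = 0.41).

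Within each library, KIF15 signal was 32.1%, 32.4% and 28.1% of KIF11 signal in NC and 33.8%, 36.5% and 31.1% in siKIF15. The lowest siKIF15 ratio fell between the NC ratios, so the groups overlapped. The log2 ratio was higher by 0.13 in siKIF15 (exact permutation test, 2-sided, p = 0.3, n = 3 per group; the smallest p that 3 against 3 libraries allow is 0.1). A ratio within a library does not depend on how libraries were scaled. A lower KIF15 relative to its partner motor was therefore not detected, and the point estimate went the other way. The longest coding transcripts of both genes are of nearly equal length, 4842 bases for KIF15 and 4860 for KIF11, so the ratio per length is close to these figures.

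**Figure D1:**
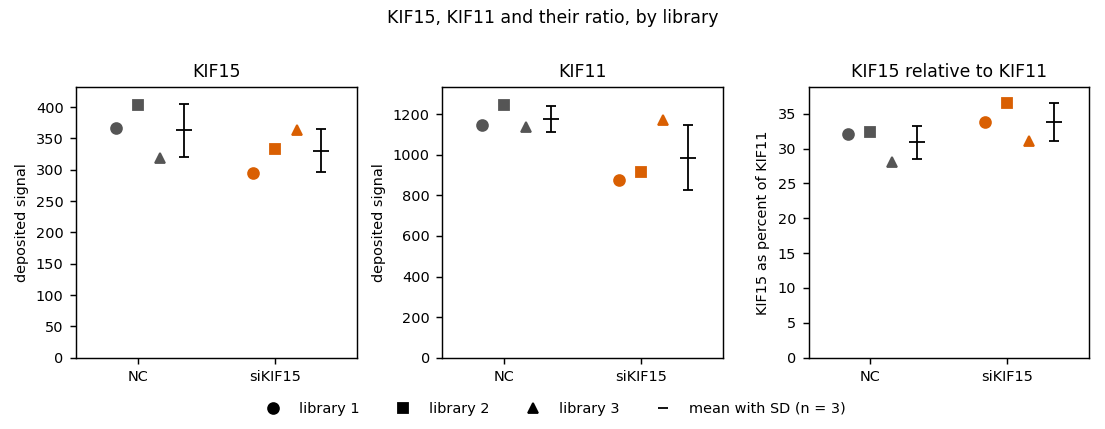
Deposited signal of KIF15 (left) and KIF11 (middle), and KIF15 as a percent of KIF11 (right), in each NC and siKIF15 library; symbols give the library number, and the bar beside each group is the mean with its SD (n = 3). The groups overlap in all 3 panels, with KIF15 at 319 to 403.6 in NC and 294.8 to 363 in siKIF15.

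Across the family, 3 of 41 genes rose (KIF9, KIF1C and KIF22) and 7 fell (KIF5B, KIF5C, KIF3A, KIF21A, KIF13A, KIF14 and KIF19). That is 24.4% of the kinesins, where 18.0% of all tested genes were called, and by direction 7.32% higher against 9.66% and 17.1% lower against 8.33%. The groups did not overlap for 16 kinesins, 7 higher and 9 lower, or 39.0% against 34.8% of all genes (18.3% higher and 16.5% lower). The median log2 change was -0.08 for the kinesins and 0 for all genes. Most kinesins thus did not pass, and the share that did was near that of all genes. With libraries scaled to equal totals, 1205 genes were called higher and 1753 lower, against 1599 and 1379 as deposited, and 2 kinesins were higher and 7 lower. Without the trend of variance on level in limma, KIF5C and KIF9 were the 2 kinesins still called (adjusted p = 0.041 and 0.036), and KIF5B was not (adjusted p = 0.075).

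By role, 6 of 17 cargo transport kinesins were called, as were 2 of 15 mitotic kinesins, and 2 of 9 ciliary, signalling and other kinesins. A mean of at least 100 was reached by 30 kinesins. Of those, 9 were called (30.0%), against 22.8% of all genes at that level, with 3 higher and 6 lower; of all genes at that level 11.4% were called in each direction. Differences between these shares were not tested.

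**Figure D2:**
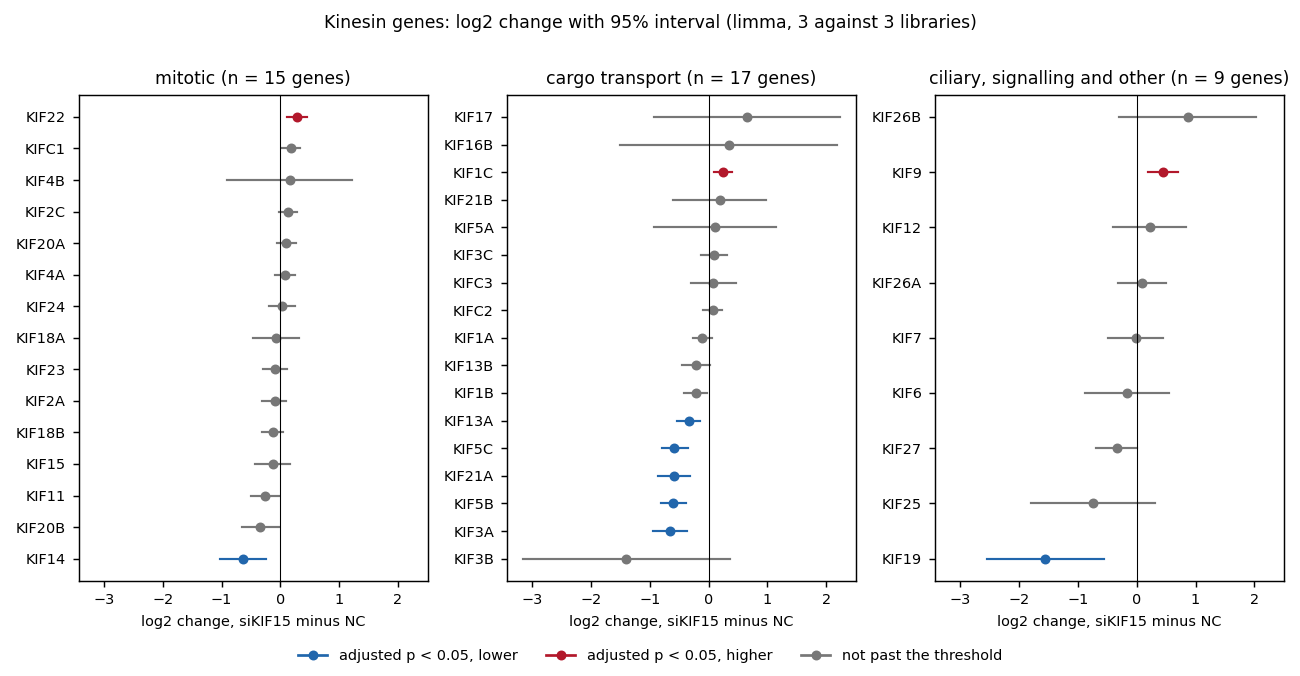
Log2 change (siKIF15 minus NC) of the 41 kinesin genes with its 95% interval from limma, in 3 panels by role; blue and red mark genes past an adjusted p of 0.05, lower and higher. Of the 10 coloured genes, 6 are in the cargo transport panel, and KIF15 and KIF11 lie among the grey mitotic genes.

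Of the 3 conventional kinesin heavy chains, KIF5B and KIF5C fell and KIF5A did not pass. KIF5B, the ubiquitous kinesin-1 motor that carries mitochondria and lysosomes, stood at 8346.7, 8904.3 and 8592.1 in the controls, against 5321.4, 4976.3 and 6937.6 after KIF15 siRNA. Each siKIF15 library was below each NC library, siKIF15 3 least so. The mean was 33.3% lower (log2 change -0.6 ± 0.1 SE, adjusted p = 0.0006). In these bulk samples, fewer cells that express a gene and less of its RNA per cell cannot be told apart.

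KIF5C, a kinesin-1 heavy chain best known from neurons, gave 985.4, 1003.6 and 998.7 in the controls, against 655.8, 595.5 and 762.2 after KIF15 siRNA. The NC mean was 995.9 ± 9.4 (SD, n = 3), and each siKIF15 library was below each NC library (log2 change -0.58 ± 0.11, adjusted p = 0.0015). KIF5A, the remaining heavy chain, was listed at 5.2 to 14.4 in all 6 libraries (log2 change 0.11, adjusted p = 0.9). Summed per kb of transcript, the 3 heavy chains gave 1564.2, 1661.3 and 1607.4 in the controls, against 1001, 934.5 and 1292.9 after KIF15 siRNA. KIF5B made up between 90.5% and 91.3% of that sum in every library, so the make-up of the family by transcript hardly moved. The calls of KIF5B and KIF5C held without any single library.

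KIF3A, a motor subunit of the kinesin-2 complex that builds cilia, also fell. It read 1339.6, 1480.9 and 1376.7 in the controls, against 768.8, 763.7 and 1178.7 after KIF15 siRNA, again with siKIF15 3 nearest to NC (log2 change -0.66 ± 0.14, adjusted p = 0.0036). The call ended without NC 2 (adjusted p = 0.057) or without siKIF15 1 (adjusted p = 0.079). Its partner KIF3C did not pass: it was at 517.3, 540.8 and 543.9 in the controls, against 553.8, 575.4 and 579.8 after KIF15 siRNA, without overlap but not past the threshold (log2 change 0.09, adjusted p = 0.6). Signal per kb was summed over KIF3A, KIF3B, KIF3C and KIF17. KIF3A made up 67.9%, 69.7% and 66.9% of that sum in NC and 53.3%, 52% and 62.6% in siKIF15. KIF3B added only 0.75 per kb in NC and 0.39 in siKIF15. The share therefore sets KIF3A mainly against KIF3C and does not give the make-up of the family. KIF3B, the usual partner of KIF3A, was listed between 0 and 7.1 in all libraries, and passed without siKIF15 3 (log2 change -2.4, adjusted p = 0.03). Such low values for a broadly used gene are not read as absence, and a change between them is not read as a fall. KIF3A, KIF5C, KIF1C and KIF22 each overlap an annotated antisense RNA, whose reads cannot be told apart from theirs without stated strand use.

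KIF21A, a kinesin-4 motor that damps microtubule growth at the cell cortex, fell from 1554.7, 1418.3 and 1451.6 to 979.8, 781.6 and 1222.1 (log2 change -0.59 ± 0.13, adjusted p = 0.0047). KIF13A, which moves recycling endosomes, fell from 1887.8, 2116.4 and 1905.4 to 1530.1, 1390.2 and 1766 (log2 change -0.34 ± 0.09, adjusted p = 0.022). Neither gene overlapped between the groups. The KIF21A call ended without siKIF15 1 (adjusted p = 0.07). That of KIF13A was lost on leaving out siKIF15 1 or 2 or any control library (adjusted p = 0.13 and 0.072, and 0.057, 0.14 and 0.063 for NC 1 to 3).

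KIF1C, a fast motor for dense-core vesicles and integrins, rose. It stood at 17514.1, 15981.6 and 17695.1 in the controls, against 20784.6, 21091.2 and 19140.6 after KIF15 siRNA, a 1.19-fold rise with no overlap (log2 change 0.25 ± 0.07, adjusted p = 0.021). The call ended without NC 1, NC 2, NC 3 or siKIF15 1 (adjusted p = 0.069, 0.14, 0.062 and 0.12). Its relatives did not rise: KIF1A, the synaptic vesicle motor, ranged from 6607 to 7094.2 in NC and from 5789.7 to 6748.7 in siKIF15 (adjusted p = 0.36). KIF1B, which carries mitochondria and vesicles, ranged from 5195.3 to 5665 and from 3974.9 to 5449 (log2 change -0.22, adjusted p = 0.12). Without siKIF15 3 it passed at -0.33 (adjusted p = 0.0034).

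The other cargo motors did not pass. KIFC2, a minus-end motor known from neurons, ranged from 4967.5 to 5238 in NC and from 4874.8 to 5734 in siKIF15. KIF13B, a relative of KIF13A, ranged from 590.4 to 695.7 and from 498.8 to 599.3 (log2 change -0.21, adjusted p = 0.23), and KIFC3, a minus-end motor at cell junctions, from 129.6 to 162.9 and from 135.6 to 171.1. KIF21B, KIF17 and KIF16B were listed at no more than 21.6, 18.2 and 5.1 in any library, which is not read as absence.

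**Figure D3:**
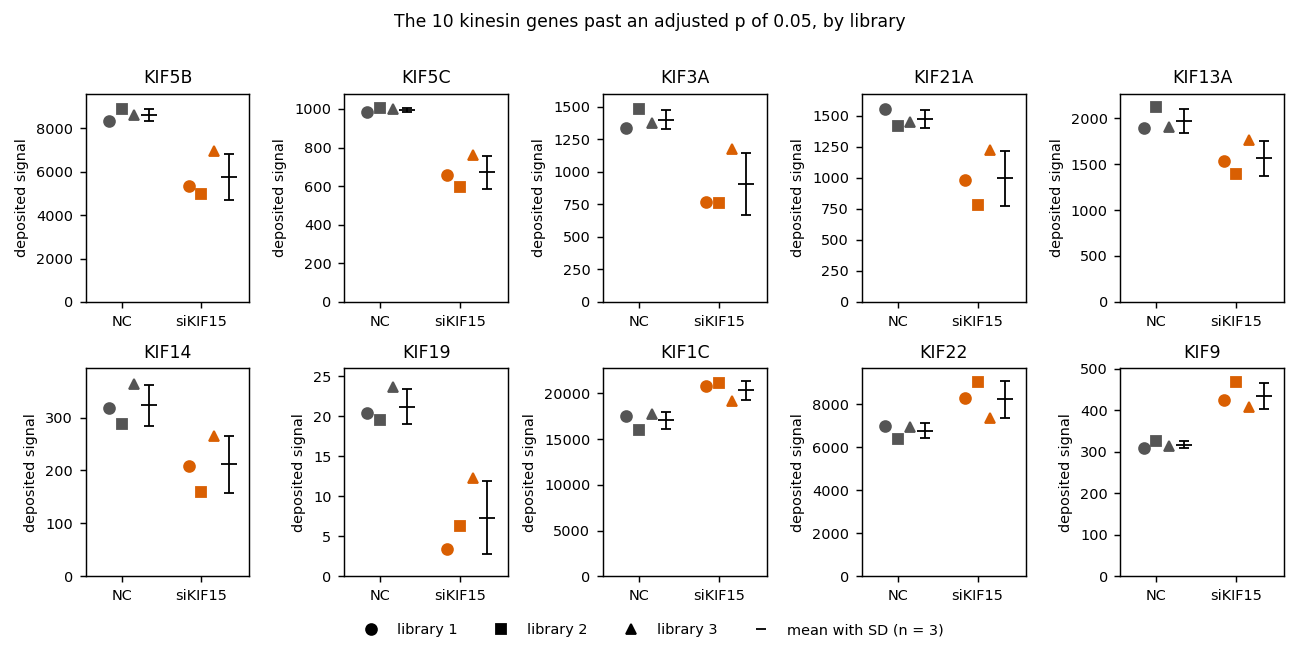
Deposited signal of the 10 kinesin genes past an adjusted p of 0.05 in each NC and siKIF15 library, on axes that start at 0; symbols give the library number, and the bar beside each group is the mean with its SD (n = 3). In every panel the groups do not overlap, and siKIF15 3 (triangle) is the siKIF15 library nearest to NC.

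Among the 15 mitotic kinesins, 1 rose and 1 fell, and the log2 changes of the other 13 lay between -0.35 (KIF20B) and 0.18 (KIFC1). KIF14, a cytokinesis motor that binds citron kinase, gave 317.6, 287.2 and 364.1 in the controls, against 209.4, 159.1 and 265.9 after KIF15 siRNA. The groups did not overlap, although the spread inside each was wide (log2 change -0.63 ± 0.18, adjusted p = 0.025). The call was lost on leaving out siKIF15 1 or 2 or any control library (adjusted p = 0.13 and 0.096, and 0.074, 0.071 and 0.12 for NC 1 to 3).

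KIF22, the chromokinesin that pushes chromosome arms toward the spindle equator, read 7003.9, 6388.3 and 6932.1 in the controls, against 8292.9, 9046.3 and 7352.9 after KIF15 siRNA. It rose 1.21-fold without overlap (log2 change 0.28 ± 0.08, adjusted p = 0.025). The call was lost on leaving out siKIF15 1 or 2 or any control library (adjusted p = 0.14 and 0.078, and 0.067, 0.16 and 0.076 for NC 1 to 3), and also when libraries were scaled to equal totals (log2 change 0.22, adjusted p = 0.053).

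The other spindle motors did not pass. KIFC1, the minus-end motor that draws poles together against KIF11, stood at 3477.1, 3243.3 and 3159.9 in the controls, against 3796.2, 3808.4 and 3609.9 after KIF15 siRNA. KIF2C, a microtubule depolymerase at centromeres, stood at 3088.2, 3002.2 and 3006.5 and at 3273.4, 3388.6 and 3292.1. Both were above every NC library without passing (adjusted p = 0.089 and 0.22), and KIFC1 passed without siKIF15 3 (log2 change 0.21, adjusted p = 0.02). KIF20A, needed for cytokinesis, was also higher without overlap (log2 change 0.1, adjusted p = 0.36).

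KIF20B, a cytokinesis motor, ranged from 588.3 to 690.6 in NC and from 382.7 to 600.1 in siKIF15 (log2 change -0.35, adjusted p = 0.12), and passed without siKIF15 3 (-0.5, adjusted p = 0.011). KIF18B, a plus-end motor that keeps astral microtubules short, gave 1578, 1582.2 and 1700 in the controls, against 1569.1, 1430.7 and 1435.1 after KIF15 siRNA, without overlap (log2 change -0.13, adjusted p = 0.3). The midzone motors KIF4A and KIF23 had log2 changes of 0.07 and -0.09, the depolymerase KIF2A one of -0.1, KIF24, which restrains cilium growth, one of 0.02 and KIF18A, which damps chromosome movement, one of -0.08. KIF4B, a near-identical copy of KIF4A without introns, was listed at 6.2 to 15.6, and its reads cannot be separated with certainty from those of KIF4A.

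Of the 9 ciliary, signalling and other kinesins, KIF9 rose and KIF19 fell. KIF9, a motor of motile cilia and flagella, stood at 309.9, 326.5 and 313.6 in the controls, against 424.1, 468.7 and 407.6 after KIF15 siRNA, a 1.37-fold rise with a wide gap between the groups (log2 change 0.45 ± 0.12, adjusted p = 0.02). The call was lost on leaving out siKIF15 1 or 2 or any control library (adjusted p = 0.077 and 0.072, and 0.078, 0.06 and 0.077 for NC 1 to 3). KIF9 overlaps KLHL18 and an antisense RNA on the opposite strand, and without stated strand use their reads cannot be told apart.

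KIF19, which shortens cilia, was low throughout: 20.4, 19.5 and 23.7 in the controls, against 3.4, 6.3 and 12.3 after KIF15 siRNA (log2 change -1.56 ± 0.47, adjusted p = 0.03). Its call was lost on leaving out siKIF15 1 or 2 or any control library (adjusted p = 0.14 and 0.065, and 0.081, 0.1 and 0.11 for NC 1 to 3). KIF7, the Hedgehog pathway kinesin, ranged from 88.9 to 122.9 in NC and from 84.5 to 117.5 in siKIF15 (log2 change -0.02, adjusted p = 0.95). KIF27, a relative of KIF7 in motile cilia, ranged from 234.9 to 307.4 and from 179.9 to 237.6 (log2 change -0.34, adjusted p = 0.18). KIF26A, KIF26B, KIF12, KIF25 and KIF6 did not pass (log2 changes from -0.75 to 0.87), and all of them but KIF26A had group means under 50.

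In each of the 10 called kinesins, siKIF15 3 was the siKIF15 library nearest to NC. The same held for 76.6% of all 1379 genes that fell and 58.4% of all 1599 that rose. After the GC and length correction given below, it held for 37% of all 3439 genes called lower and 45.4% of all 1649 called higher. Among kinesins it then held for 7 of 8 called lower and 2 of 2 called higher. Leaving out siKIF15 3 raised the called kinesins to 15, and leaving out any other single library lowered them to between 2 and 5. Only falls were then called among kinesins, except that KIF1C stayed called without siKIF15 2. Calls over all genes moved the same way, from 2978 to 5077 of 16573 without siKIF15 3. They fell to between 1184 and 2187 without any other library.

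The libraries also differed in how signal followed base composition. Over 13376 genes, GC content and the distance of a gene from its group's mean in 1 library had a Spearman correlation of 0.44, 0.43 and -0.63 in siKIF15 1, 2 and 3, and with transcript length 0.03, -0.53 and 0.44; genes are not independent replicates. The kinesins that fell had a median GC content of 42.1% and a median transcript length of 6601 bases, and those that rose 54.9% and 3357 bases. All genes that fell had medians of 42.3% and 5810 bases, and all that rose 54.4% and 2662 bases. The medians of called kinesins thus differed in the same direction as those of called genes at large, but single kinesins did not all follow. KIF1C, which rose, had 7919 bases, above the 7274 of the longest kinesin that fell. KIF19, which fell, had a GC content of 63.5%, above the highest of the kinesins that rose (58.9%). The part of composition or length in the kinesin changes was not tested beyond the fit that follows. Over the 30 kinesins with a mean of at least 100, which share the same 6 libraries, the Spearman correlation of log2 change with GC content was 0.66. Over all 11276 genes at that level with both properties it was 0.37.

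A smooth function of GC content and transcript length was therefore fitted in each library and subtracted. KIF5B, KIF5C, KIF3A and KIF21A stayed lower at log2 changes of -0.46, -0.46, -0.49 and -0.46 (adjusted p = 3.2e-06, 0.00019, 0.00042 and 0.00073). KIF13A, KIF14 and KIF19 also stayed lower (-0.25, -0.43 and -1.67, adjusted p = 0.0063, 0.029 and 0.016), and KIF1C and KIF9 higher (0.28 and 0.32, adjusted p = 0.0022 and 0.029). Thus 9 of the 10 calls were kept. That of KIF22 ended (0.1, adjusted p = 0.12), and KIF18B was called lower (-0.27, adjusted p = 0.0025). KIF15 remained uncalled at -0.07 ± 0.12 (adjusted p = 0.68), as did KIF11 at -0.17 ± 0.07 (adjusted p = 0.078).

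After correction 2 kinesins were higher and 8 lower, 24.4% of the family, while 31.7% of all 16039 genes with both properties were called, 10.3% higher and 21.4% lower. The groups did not overlap for 3 kinesins that were higher and 11 that were lower, 34.1% of the family, against 45.1% of all genes (14.6% higher and 30.5% lower). Both shares were then below those of all genes. The median log2 change after correction was -0.04 for the kinesins and -0.08 for all genes. Corrected values were thus not centred on 0, and falls were called more often than rises over all genes. Over the same 30 kinesins the correlation with GC content was 0.57 after correction, against -0.02 over all genes at that level.

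**Figure D4:**
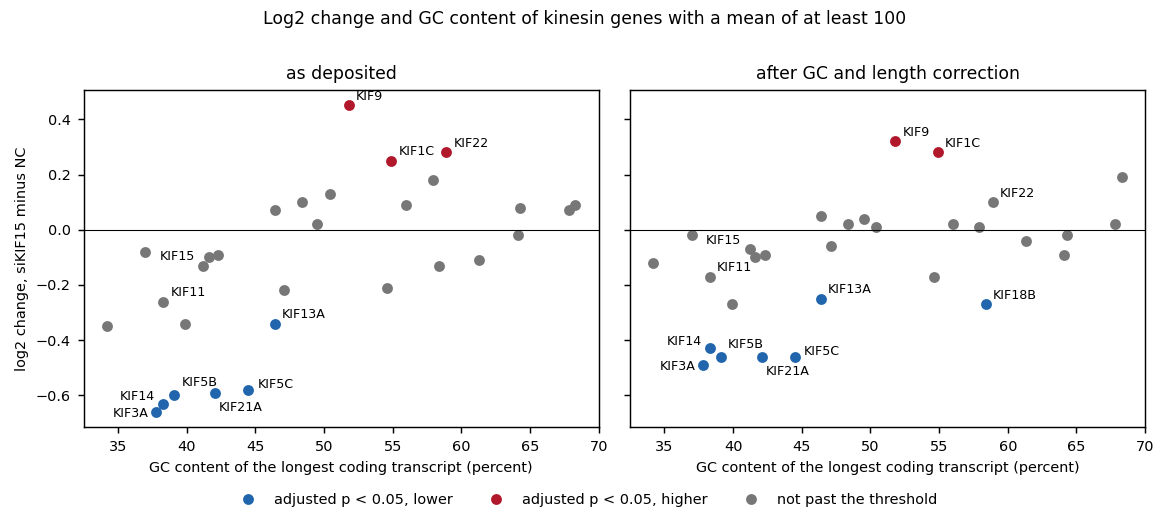
Log2 change (siKIF15 minus NC) against the GC content of the longest coding transcript for the 30 kinesin genes with a mean of at least 100, as deposited (left) and with the fitted GC and length trend removed (right); blue and red mark genes past an adjusted p of 0.05. KIF3A, KIF14, KIF5B, KIF21A and KIF5C remain lowest in both panels, and KIF22 loses its call on the right.

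Levels were compared between kinesins only per kb of the longest coding transcript in GENCODE 29, since the isoform counted is not stated. KIF22 had the highest level in NC, at 2704.5 per kb, followed by KIF1C at 2154.8, KIF5B at 1465.8, KIFC2 at 1431 and KIFC1 at 1217.1. KIF11 ranked at position 15, at 242 per kb, and KIF15 at position 23, at 75 per kb, so the target of the siRNA was among the lower of the spindle motors. In siKIF15, KIF5B moved from position 3 to position 7, behind KIFC2, KIFC1, KIF2C and KIF20A, and KIF15 stayed at position 23. Neighbours in this order were not tested against each other.

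**Figure D5:**
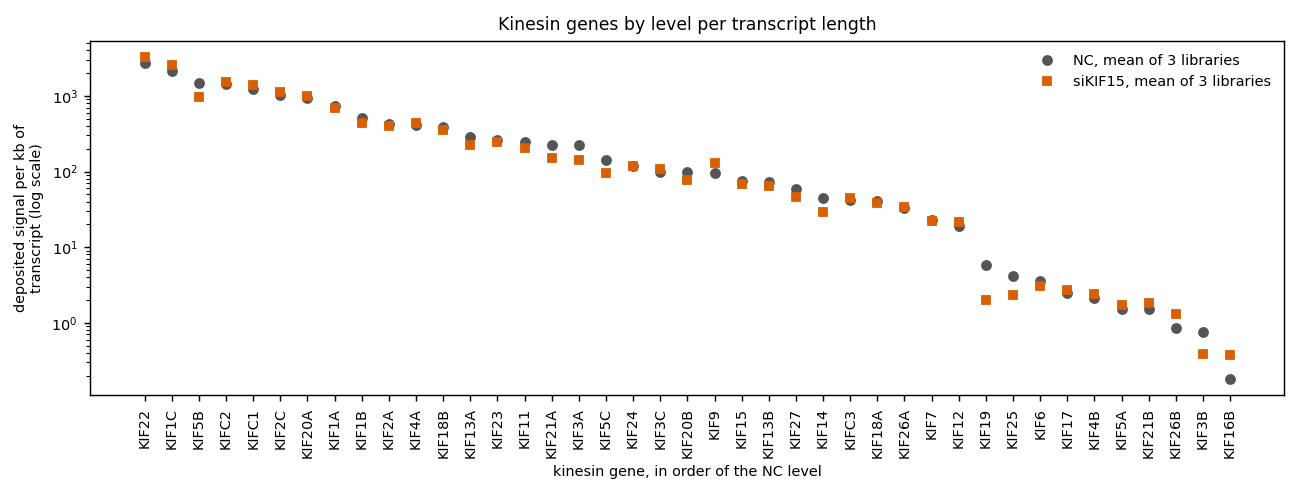
Mean deposited signal per kb of transcript (log scale) of the 41 kinesin genes in NC (circles) and siKIF15 (squares), in order of the NC level. Levels run from 2704.5 per kb for KIF22 to 0.18 for KIF16B in NC, and KIF5B, KIF3A, KIF21A, KIF5C, KIF14 and KIF19 show squares below their circles.

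Beside the 18.0% of all genes called (9.66% higher and 8.33% lower), genes that work with kinesins were counted by list. Counts after correction stand beside 31.7% of all genes (10.3% higher and 21.4% lower). Of 15 spindle assembly partners of KIF11 and KIF15, 1 passed, NEK7, as a fall, and the median log2 change was -0.07. After the GC and length correction 2 were higher and 3 lower, NEK7 among them. NEK7, a kinase that acts on KIF11 at the poles, went from 6561.3, 6763.6 and 6211.8 to 4680.6, 4602.4 and 5994.7 (log2 change -0.36 ± 0.09, adjusted p = 0.012). TPX2, which brings KIF15 to spindle microtubules, was listed at 5.6 to 15.8 in NC and 5.3 to 10.4 in siKIF15, too low to be read. The same holds for AURKA, listed at 0 in each NC library and at 0, 4.1 and 0.01 in siKIF15. CENPE, the kinesin at kinetochores that the name pattern does not take, gave 424.6, 506.6 and 477.6 in the controls, against 329.9, 251.2 and 475.1 after KIF15 siRNA (log2 change -0.46, adjusted p = 0.099). Of 9 genes counted as proliferation markers 1 passed, MCM2, a replicative helicase subunit, as a rise. After correction 1 of the 9 was higher and 1 lower. The 9 include RBP3 (at most 4.1 in any library), which is not a proliferation marker and was matched through an older name of E2F1. MYBL2, E2F1 and PCNA had no rows of their own. MKI67 ranged from 2925.5 to 3143 in NC and from 1927.2 to 2873.9 in siKIF15 (adjusted p = 0.062).

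Among 18 kinesin light chains and cargo adaptors, 3 fell and 1 rose, with a median log2 change of 0.04, and after correction 3 were higher and 5 lower. Over all genes, 10.3% were called higher and 21.4% lower after correction. The light chains themselves did not pass: KLC1, which binds KIF5 heavy chains to cargo, was at 2879.3, 3167.9 and 3008.4 in the controls, against 3073.2, 2844.7 and 3042.4 after KIF15 siRNA (log2 change -0.01, 95% interval -0.17 to 0.14). Light chain signal thus overlapped between the groups while the heavy chains KIF5B and KIF5C fell. TRAK2 and RHOT1, which link KIF5 to mitochondria, fell (log2 changes -0.36 and -0.27, adjusted p = 0.0067 and 0.029). PLEKHM2, a kinesin-1 adaptor on lysosomes, rose (0.31, adjusted p = 0.029). Of 24 genes for dynein and dynactin, the motor complex of opposite direction, ACTR1B and DCTN2 rose and DYNC2H1, the ciliary dynein heavy chain, fell (log2 changes 0.33, 0.26 and -0.78, adjusted p = 0.0059, 0.018 and 0.019). After correction 1 gene of this list was higher and 6 were lower, and the DCTN2 call was lost (log2 change 0.08, adjusted p = 0.18).

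The libraries showed luminal prostate identity, with KLK3 at 62252.7 to 72705.8. Of 9 luminal markers, 4 rose and 1 fell, and after correction 4 were higher and 3 lower, KLK3 among the latter (log2 change -0.16, adjusted p = 0.0055). The corrected shares over all genes were 10.3% higher and 21.4% lower. Among markers of other cells, PTPRC reached at most 3.8 and PECAM1 at most 5.5, whereas COL1A1 (311.2 to 359.1) and VWF (309.7 to 395.2) were present in both groups. Of 5 leukocyte markers CD68 rose, and of 6 fibroblast markers PDGFRA and FAP did, at no more than 7.3 in any library. Summed levels were 1672.5 to 1904.5 in NC and 2923.8 to 3589.8 in siKIF15 for 5 leukocyte markers, mostly CD68, 329.5 to 348.8 and 329 to 376.8 for 6 fibroblast markers, and 313.3 to 334.2 and 318 to 414.5 for 3 endothelial markers. All 8 interferon response genes of the list rose, IFNB1 from 1.7, 0.08 and 1.9 to 2240.7, 2388.1 and 2119.2; their part in the kinesin changes was not tested.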

How the data were processed

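RNA-seq of 6 libraries was analysed. Each deposited file lists a signal for every gene symbol and names no unit. Judged by the values alone, the authors may have rescaled gene counts to equal library sizes; depth is unknown and no counting interval was given. Per the submitters' processing notes, the tools include Bowtie 0.12.2, and the builds are mm9 and mm8, of mouse, although the cells are human. The sources used here do not give the human build, the annotation or the strand use.

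The 16548 genes whose mean reached 1 in either group were tested by limma 3.58.1 (R 4.3.3) with a variance trend on log2(value + 1), 6 libraries in 1 fit, no covariate, and Benjamini-Hochberg adjustment over all of them. The KIF15 to KIF11 ratio used an exact permutation test. GC content and length came from the longest coding GENCODE 29 transcript (96.9% of tested rows). The correction used splines with 5 degrees of freedom, fitted on genes with a mean of at least 10. The fits were tested on simulated data, with changes added to genes with a mean of at least 100. The simulated noise was independent between genes, without the shared length trends of these libraries. For the corrected fit only, a GC slope was added to 1 siKIF15 library, so the recoveries are not like for like. Of added log2 changes of 0.5, the main fit recovered 52% and the corrected fit 51.5%. Of those of 1, they recovered 94% and 93.9%. A log2 change of 0.5 or less can thus go uncalled.

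Members and lists were chosen with earlier results of these data known. Every kinesin could be named; from other lists, genes past the threshold (up to 6 per list) and a few fixed markers were. VWF was named after its values were seen. Some members of these lists are counted but not reported by name here. The fit with the replicate number as a block is given below, since same-numbered libraries did not deviate together.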

Additional observations from a re-analysis of the deposited data

How the results depend on the processing

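Each of the 41 kinesins was refitted under 17 alternatives (693 values, since low genes drop out of some filters). Of these, 624 kept direction and side of the threshold, 43 lost a call, 7 gained one and 19 changed sign, the last in 10 kinesins of which 0 were called. The calls over all genes numbered 2978, and 1366 when NC 2 was left out, 1184 (lowest) to 5077 (highest) over single libraries left out; called kinesins went from 10 to between 2 and 15. Without a variance trend 1070 genes and 2 kinesins (KIF5C and KIF9) were called. After GC and length correction 5088 genes were called, 1649 higher and 3439 lower, and with the replicate block as well 5188, 1690 higher and 3498 lower. The split was 1599 and 1379 without correction, and 1205 and 1753 with equal totals. The cause of these shifts was not tested; fewer libraries also lower power.

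The replicate block gave 3184 genes, 10 kinesins and a KIF15 change of -0.13; the correlation of deviations in same-numbered libraries was 0.033, -0.057 and 0.015, so the numbers were not taken as pairs. The KIF15 to KIF11 difference was 0.13 with the block, 0.06 to 0.19 without single libraries (exact p = 0.1 to 0.6), 0.08 after quantile normalization and 0.09 after correction. KIF15 stayed between -0.224 and -0.055 in all 17 alternatives (adjusted p = 0.31 to 0.87).

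Sign changes occurred with equal totals for KIF24 (-0.038), with quantile normalization for KIFC3 (-0.039) and KIF5A (-0.066), and with the correction, alone or with the block, for KIFC3 (-0.023). Without single libraries the ranges that crossed 0 were -0.424 to 0.046 for KIF6, -0.135 to 0.108 for KIF7, -0.035 to 0.916 for KIF16B, -0.143 to 0.51 for KIF4B, -0.023 to 0.062 for KIF24, -0.438 to 1.365 for KIF17, -0.08 to 0.31 for KIF26A, -0.196 to 0.016 for KIF18A, -0.002 to 0.174 for KIFC3 and -0.179 to 0.482 for KIF5A. DESeq2 was not run, because the values are not counts.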
